A study of Homo sapiens with 9 samples.

Results

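The genes described here are 34 interferon response genes, which interferons are known to induce or which carry the interferon signal to the nucleus. They were chosen by name from 19775 genes with a probe set annotated to that gene alone. Of the 34, 33 had such a probe set, and STAT2 was not analysed here. Each gene was read from its brightest probe set on average. 23 of the 34 had a mean log2(signal + 1) over all 9 arrays of at least 6.05, a signal of 65.4, and were tested among 12616 genes. The other 10 were too dim for a test and are given by their signals alone.

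Interferons are secreted proteins that cells release on sensing viral RNA or DNA. Their receptors activate Janus kinases, which phosphorylate STAT factors, and the type I response is then carried by a complex of STAT proteins with IRF9 that binds a promoter motif called the interferon-stimulated response element (ISRE). The type II response acts mainly through a second motif, the gamma-activated site (GAS), and many of the induced proteins block virus entry, translation or RNA stability. A549 is a human lung adenocarcinoma cell line with alveolar epithelial features and is widely used to study respiratory virus infection.

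The study measured RNA from A549 cells on 9 Affymetrix arrays. The si-Med23 group was 3 cell lines, each with a different RNAi oligo (A, B or C) against MED23, a subunit of Mediator, the coactivator through which transcription factors recruit RNA polymerase. The si-Elk1 group was 3 cell lines, each with a different oligo against ELK1, an ETS-family transcription factor known to bind MED23. The si-Ctrl group was 3 replicates of control cells. All were grown in ordinary culture and none was given interferon or a virus. Each oligo is represented by 1 array, so oligo and line cannot be told apart, and the labels do not say whether the control replicates were separate cultures, so p-values measure only the spread between these arrays.

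Both knockdowns lowered their target. MED23 gave signals of 109, 71.9 and 132 with si-Med23 oligos A, B and C, against 616, 529 and 541 in si-Ctrl (log2 fold change -2.46 ± 0.27 SE, limma adjusted p = 0.001843). ELK1 gave 133, 141 and 226 with si-Elk1 oligos A, B and C, against 655, 783 and 627 in si-Ctrl (-2.07 ± 0.26, adjusted p = 0.006842). The array of si-Elk1 oligo C stood apart from its group: 8.20% and 7.86% of the tested genes differed at least 2-fold from oligos A and B, against 3.23% between A and B. All 6 epithelial markers were above the filter level, KRT8 and KRT18 among them. The epithelial list summed to signals of 84563 to 114810 in si-Med23, 65665 to 84677 in si-Elk1 and 62921 to 69951 in si-Ctrl. Of 5 alveolar type II markers measured, SFTPB, SFTPC, ABCA3 and LPCAT1 were above the level and NKX2-1 was below it. That list summed to 3430 to 4575 in si-Med23, 2619 to 2973 in si-Elk1 and 1835 to 2543 in si-Ctrl, and ABCA3 (1.59) and LPCAT1 (0.82) rose in si-Med23. Of 8 white blood cell markers measured, 3 were above the level. Their list summed to signals of 928.3 to 1285 in si-Med23, 1217 to 1269.7 in si-Elk1 and 629 to 734 in si-Ctrl. PTPRC, which defines those cells, was below the level on every array (3.3 to 28.3), and the log2 fold changes of the 3 markers above it differed. CD14 rose in both knockdowns (1.65 ± 0.25 in si-Med23 and 1.77 ± 0.25 in si-Elk1) and carried the higher sum, while CD3E (-1.81 in si-Med23 and 0.68 in si-Elk1) and ITGAM (-0.24 and -0.38) did not pass. What part such markers have in the results below was not tested.

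The direction of a change in these data is relative to the deposited scaling. Poly-A spike-in controls averaged a log2 signal of 9.22 ± 0.12 in si-Med23, 8.25 ± 0.29 in si-Elk1 and 7.61 ± 0.20 in si-Ctrl (SD, n = 3 each). The ribosomal RNA control probe sets also moved with the group, with mean log2 signals of 8.39 to 9.03 over the si-Med23 arrays, 7.79 to 8.24 in si-Elk1 and 7.58 to 8.11 in si-Ctrl, and their part in the results was not tested. Setting the arrays to the poly-A spikes would lower every log2 fold change of si-Med23 against si-Ctrl by 1.61, and setting them to the hybridization controls would lower it by 0.50. The position of a gene relative to the median gene is the same under each such shift.

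Promoter sequences are shown first, because the genes share the motifs of the interferon pathway and yet moved differently. Of the 34 genes, 27 had an entry in the RefSeq promoter table (GRCh38.p14), which runs from 250 bases before to 50 bases after the transcription start. The ISRE core was here 2 copies of GAAA with any 2 bases between them (2 copies of TTTC on the other strand). It was found in 20 of these 27 genes (74.1%), against 1195 of 27305 genes in the whole table (4.38%). A gene with several promoters counted once, if any of them matched. The GAS core TTCNNNGAA, which reads the same on both strands, was found in 10 of 27 (37.0%), against 9.38% of genes in the table. The ELK1-type ETS motif CCGGAAGT, or ACTTCCGG, was in 0 of 27, against 4.95% of genes in the table. This speaks only of these letters in this window. ISRE and GAS matches may overlap and were counted separately.

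The following are the 160 bases before the start of 5 genes that rose in si-Med23. Each is written 5' to 3' on the gene's strand, and capitals mark ISRE or GAS matches, merged where 2 matches overlap. Only matches that lie wholly within the 160 bases are marked.
ISG15 (chr1:1013337-1013496, + strand): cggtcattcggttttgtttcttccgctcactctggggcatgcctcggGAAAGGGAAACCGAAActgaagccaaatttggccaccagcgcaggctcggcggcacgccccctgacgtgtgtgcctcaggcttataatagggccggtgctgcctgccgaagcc
IFI6 (chr1:27672193-27672352, - strand): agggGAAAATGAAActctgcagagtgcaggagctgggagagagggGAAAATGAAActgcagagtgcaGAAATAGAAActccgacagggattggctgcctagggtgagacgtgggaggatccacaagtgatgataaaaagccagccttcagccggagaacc
IFIT1 (chr10:89392463-89392622, + strand): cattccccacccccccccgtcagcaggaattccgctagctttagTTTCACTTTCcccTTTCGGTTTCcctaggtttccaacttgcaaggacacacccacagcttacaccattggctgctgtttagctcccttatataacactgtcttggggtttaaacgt
IFI35 (chr17:43006624-43006783, + strand): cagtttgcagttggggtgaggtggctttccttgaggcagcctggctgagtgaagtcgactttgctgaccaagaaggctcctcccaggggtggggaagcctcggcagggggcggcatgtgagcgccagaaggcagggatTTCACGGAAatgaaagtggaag
IRF9 (chr14:24161105-24161264, + strand): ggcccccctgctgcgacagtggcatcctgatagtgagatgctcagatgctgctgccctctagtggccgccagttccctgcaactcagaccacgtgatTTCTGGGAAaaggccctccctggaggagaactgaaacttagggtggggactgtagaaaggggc
The capitals in ISG15, IFI6 and IFIT1 are ISRE matches, while those in IFI35 and IRF9 are GAS matches.

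For comparison, the next 3 did not rise in si-Med23. IFIT5 fell, and HERC5 and IFIT3 did not pass.
IFIT5 (chr10:89414408-89414567, + strand): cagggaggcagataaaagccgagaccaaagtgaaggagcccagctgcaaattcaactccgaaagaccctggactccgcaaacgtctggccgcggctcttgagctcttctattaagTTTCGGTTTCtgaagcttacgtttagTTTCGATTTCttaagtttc
HERC5 (chr4:88456959-88457118, + strand): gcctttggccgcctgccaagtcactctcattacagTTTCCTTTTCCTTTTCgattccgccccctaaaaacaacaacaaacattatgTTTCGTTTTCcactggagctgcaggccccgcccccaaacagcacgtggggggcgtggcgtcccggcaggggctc
IFIT3 (chr10:89332369-89332528, + strand): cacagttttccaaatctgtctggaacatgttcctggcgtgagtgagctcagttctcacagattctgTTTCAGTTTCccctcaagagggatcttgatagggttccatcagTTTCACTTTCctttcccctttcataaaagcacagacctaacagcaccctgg
All of their capitals are ISRE matches, and a further ISRE match of IFIT5, from position -4 across the start, is not marked. An ISRE was present in 7 of the 10 genes that rose, in IFIT5, and in 5 of the 7 tested genes with a promoter entry that did not pass.

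In si-Med23 cells, 10 of the 23 tested genes rose and 1 fell against si-Ctrl, and 12 did not pass. The 10 were IFI6, ISG15, IFI35, IFITM1, IRF9, IRF1, MX1, IFIT1, ISG20 and PARP9, and the 1 that fell was IFIT5. The changes were of moderate size, up to a log2 fold change of 1.58. The 10 make up 43.5% of the tested members, where 20.3% of all 12616 genes rose, and the 1 makes up 4.35%, where 19.5% of all genes fell. The median log2 fold change of the 23 was 0.71, against 0.09 over all genes. In 11 of the 23, every si-Med23 array lay above every si-Ctrl array, as in 31.7% of all genes, and in 2 every array lay below, as in 25.6%. All 10 rises turned negative under the poly-A spike scaling (-1.09 to -0.031) and stayed positive under the hybridization, median and quantile scalings, while IFIT5 stayed lower under each of them. These counts are over the 23 tested genes, not all 34. In RNA from whole cultures, more cells that respond and more RNA in each cell cannot be told apart.

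In si-Elk1 cells, 0 of the 23 rose and 0 fell by limma's adjusted test, while 3.07% of all genes rose and 1.19% fell, 4.26% in either direction. At an unadjusted p under 0.05 there were 5 of the 23 (OAS1, IFIT1, IFITM1 and IFI6 higher, IFIT5 lower), against 25.1% of all genes. The median of the 23 was 0.19, against 0.05 over all genes. No overlap with si-Ctrl was seen in 4 genes on the higher side (21.1% of all genes) and 4 on the lower side (15.1%). A p that misses the threshold does not show that these genes were unaffected, and the 2 knockdown comparisons share the 3 control arrays. Without the array of si-Elk1 oligo C the counts were again 0 higher and 0 lower.

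The signalling factors are described first. IRF9, the DNA-binding partner of the STAT proteins in the type I response, gave signals of 940.1, 929.9 and 1049 with si-Med23 oligos A, B and C, 563, 482 and 646 with si-Elk1 oligos A, B and C, and 494, 394 and 456 in si-Ctrl replicates 1, 2 and 3. Every si-Med23 array lay above all other arrays, while si-Elk1 overlapped si-Ctrl. The log2 fold change was 1.12 ± 0.15 in si-Med23 (adjusted p = 0.002108) and 0.33 ± 0.15 in si-Elk1 (adjusted p = 0.2057). IRF1, a transcription factor induced mainly by type II interferon, gave 683, 544 and 713 in si-Med23, 323, 424 and 514 in si-Elk1, and 379, 311 and 308 in si-Ctrl. Its si-Med23 arrays were also the highest of the 9. It rose by 0.96 ± 0.19 in si-Med23 (adjusted p = 0.006836), and in si-Elk1 it differed by 0.32 ± 0.19 (adjusted p = 0.3251). A second IRF1 probe set above the filter level differed by 1.18 in si-Med23 and 0.66 in si-Elk1. On that probe set the si-Elk1 signals (299.0, 368.5 and 434.5) lay above those of si-Ctrl (238.5, 236.1 and 214.0). IRF7, which drives interferon alpha genes, did not pass. Its signals of 235, 340 and 252 in si-Med23 lay above the 208, 115 and 190.3 of si-Ctrl (0.71 ± 0.27, adjusted p = 0.06719), and si-Elk1 gave 167, 230.2 and 283.

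None of the 4 tested genes of nucleic acid sensing and oligoadenylate synthesis passed in either knockdown. Over all genes, 39.8% passed in si-Med23 and 4.26% in si-Elk1. OAS1, OAS3 and OASL belong to the oligoadenylate synthetase family, whose active members make the messenger that switches on RNase L, and IFIH1 senses long double-stranded RNA. OAS1 gave 635, 1067 and 902 in si-Med23, 916, 922 and 1113 in si-Elk1, and 639, 688 and 540.4 in si-Ctrl. The si-Elk1 arrays lay above si-Ctrl without overlap (0.66 ± 0.20, adjusted p = 0.09181), while oligo A of si-Med23 lay within the control range (0.45 ± 0.20, adjusted p = 0.1011). On a second OAS1 probe set above the filter level, neither knockdown overlapped si-Ctrl (469.6, 446.9 and 448.9). There si-Med23 gave 506.9, 948.5 and 653.8 and si-Elk1 796.4, 769.1 and 891.5, differences of 0.58 and 0.84. OASL spread widely within si-Ctrl, at 95.6, 127 and 21.1, and gave 87.4, 166 and 151 in si-Med23 (1.01 ± 0.58, adjusted p = 0.1941). Across these 4 genes the log2 fold change ranged from -0.34 to 1.01 in si-Med23.

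In the IFIT family, whose members bind viral RNA or block its translation, 1 of 4 genes rose and 1 fell in si-Med23, near the 20.3% and 19.5% over all genes. IFIT1 gave 509.7, 326 and 488 in si-Med23, 356, 325 and 487 in si-Elk1, and 265, 259 and 238 in si-Ctrl. Both knockdowns lay above the control without overlap, but only the si-Med23 difference passed (0.77 ± 0.21, adjusted p = 0.01986), against 0.59 ± 0.21 and adjusted p = 0.1277 in si-Elk1. The difference between the knockdowns was 0.18 ± 0.21 (adjusted p = 0.5586). The IFIT1 call was lost when si-Ctrl replicate 3 (adjusted p = 0.06574), si-Med23 oligo A (0.06321) or oligo C (0.06074) was left out. IFIT5 was lower, with 446, 397 and 626 in si-Med23, 612, 712 and 486 in si-Elk1, and 912, 764 and 849 in si-Ctrl. Its control arrays were the 3 highest of the 9. IFIT5 fell in si-Med23 (log2 fold change -0.80 ± 0.20, adjusted p = 0.01505) and differed by -0.49 ± 0.20 in si-Elk1 (adjusted p = 0.1767). The call was lost without si-Ctrl replicate 1 (adjusted p = 0.05025) or si-Med23 oligo B (0.05058). IFIT2 and IFIT3 did not pass, and IFIT2 was low on the array of si-Elk1 oligo C alone, with a signal of 28.5 where the other 8 arrays gave 87.7 to 153.

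ISG15 is a ubiquitin-like protein that is attached to other proteins during infection. It gave 628, 639 and 974 in si-Med23, 271, 308 and 396 in si-Elk1, and 270.3, 221 and 278 in si-Ctrl. The si-Med23 arrays lay far above the rest. The log2 fold change was 1.52 ± 0.21 in si-Med23, a 2.86-fold rise (adjusted p = 0.002442), and 0.33 ± 0.21 in si-Elk1 (adjusted p = 0.3553). HERC5, the main ligase that attaches ISG15, did not follow it. It gave 359.7, 218 and 374 in si-Med23, 536, 482 and 220.3 in si-Elk1, and 465, 515 and 635 in si-Ctrl. All 3 si-Med23 arrays lay below the control, though the difference did not pass (-0.79 ± 0.35, adjusted p = 0.1008). USP18, which removes ISG15, and HERC6, a relative of HERC5, did not pass either.

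Of 8 other antiviral effectors, 4 were tested and 3 of these rose in si-Med23, where 20.3% of all genes rose. IFITM1, a membrane protein that hinders virus entry, gave 282, 241 and 438 in si-Med23, 218, 332 and 259 in si-Elk1, and 111, 161 and 105 in si-Ctrl. Neither knockdown overlapped the control, and the log2 fold change was 1.32 ± 0.27 in si-Med23 (adjusted p = 0.006716) and 1.10 ± 0.27 in si-Elk1 (adjusted p = 0.05418). The IFITM1 probe set is of a class that can detect several transcripts, so signal from its close relatives may be included. ISG20, an exonuclease that degrades RNA, gave 928, 748 and 877 in si-Med23, 493, 505 and 748 in si-Elk1, and 503, 546 and 459 in si-Ctrl. The array of si-Elk1 oligo C was as high as the lowest si-Med23 array, and the difference passed in si-Med23 alone (0.76 ± 0.18, adjusted p = 0.01242, against 0.19 ± 0.18 and adjusted p = 0.5311 in si-Elk1). MX1, a GTPase that traps viral ribonucleoproteins, gave 288, 171 and 218 in si-Med23, 136, 188 and 189 in si-Elk1, and 93.8, 185 and 96.1 in si-Ctrl. Control replicate 2 lay above the lowest si-Med23 array. The MX1 rise of 0.89 ± 0.30 (adjusted p = 0.04198) was lost without si-Ctrl replicate 1 (adjusted p = 0.1266), si-Ctrl replicate 3 (0.1321), si-Med23 oligo A (0.1257) or oligo C (0.08518). TRIM22, a RING-finger protein that restricts several viruses, gave 154, 104 and 218 in si-Med23, 165, 239.7 and 94.7 in si-Elk1, and 97.1, 93.4 and 87.9 in si-Ctrl. It lay above the control in si-Med23 but spread widely and did not pass (0.71 ± 0.35, adjusted p = 0.1362).

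IFI6, a mitochondrial protein that restrains apoptosis, had the largest log2 fold change of the 23. It gave 179, 215 and 345 in si-Med23, 126, 130.3 and 148 in si-Elk1, and 105, 51.9 and 88.7 in si-Ctrl. The 3 groups did not overlap, and 1 control array was below the filter level. The log2 fold change was 1.58 ± 0.30 in si-Med23 (adjusted p = 0.005519) and 0.76 ± 0.30 in si-Elk1 (adjusted p = 0.1594). IFI35, a leucine-zipper protein of the interferon response, gave 1333, 1231 and 1324 in si-Med23, 486, 503 and 629 in si-Elk1, and 518, 498 and 446 in si-Ctrl. Its 3 si-Med23 arrays agreed closely and lay at least 2-fold above every other array but one, oligo C of si-Elk1. It rose by 1.41 ± 0.13, or 2.66-fold, in si-Med23 (adjusted p = 0.001843), and in si-Elk1 it differed by 0.14 ± 0.13 (adjusted p = 0.5284).

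PARP9 and PARP14 belong to the ADP-ribosyltransferase family. PARP9 gave 479, 552 and 511 in si-Med23, 312, 319 and 299 in si-Elk1, and 370.2, 369 and 337 in si-Ctrl. The si-Med23 arrays were the highest and the si-Elk1 arrays the lowest, with no overlap. The log2 fold change was 0.52 ± 0.11 in si-Med23 (adjusted p = 0.007799) and -0.21 ± 0.11 in si-Elk1 (adjusted p = 0.2604). A second, dimmer PARP9 probe set above the filter level differed in the opposite direction in si-Med23 (-0.58), so the probe sets disagree on this gene. PARP14 did not pass in either knockdown.

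**Figure D1:**
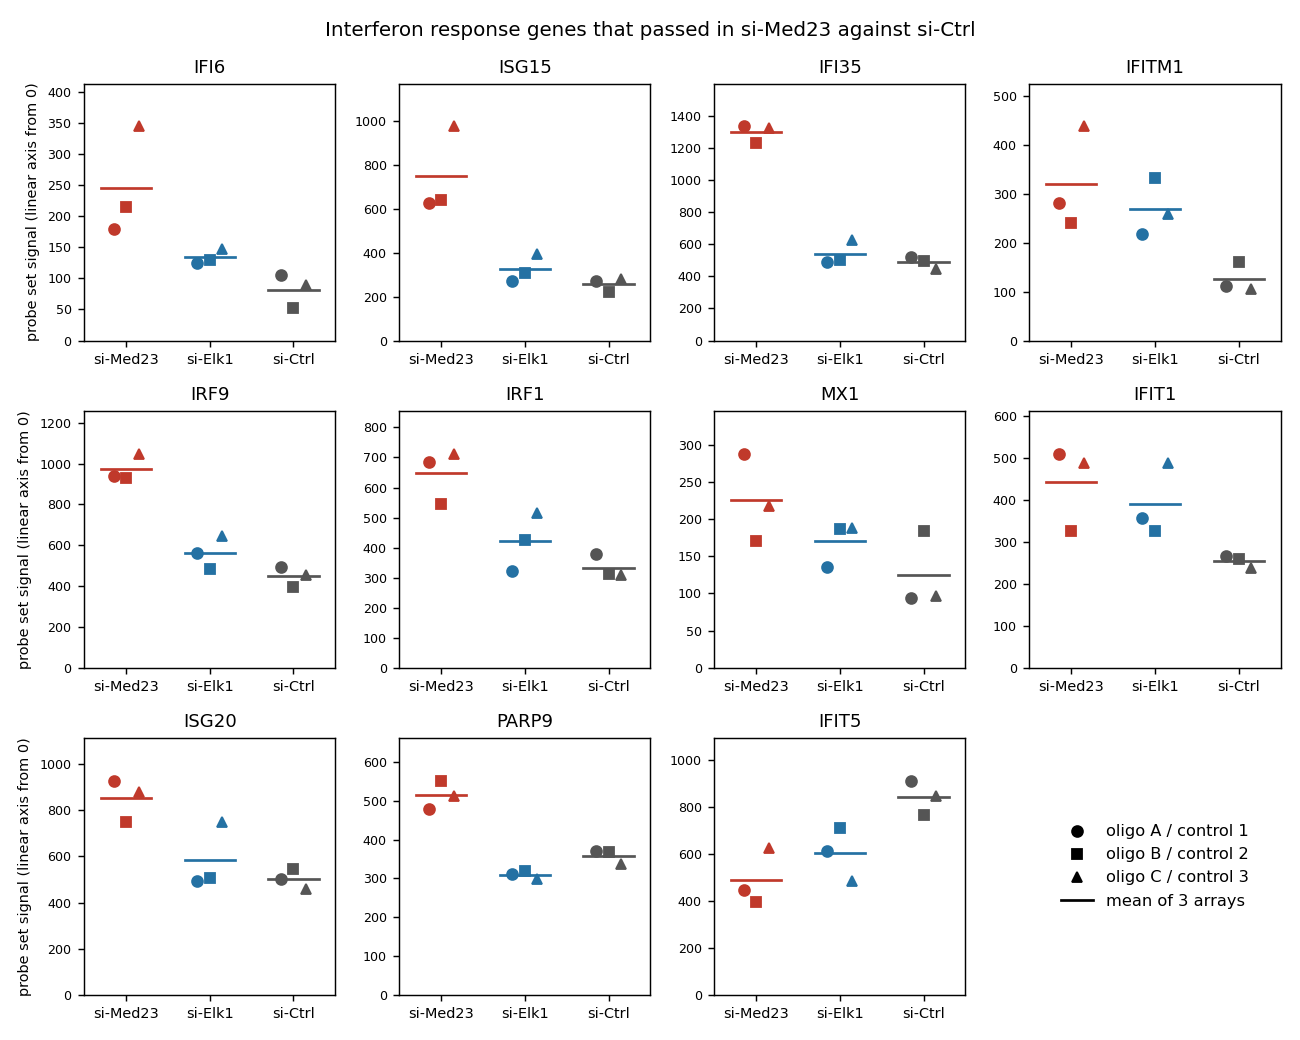
Signals of the 11 interferon response genes that passed in si-Med23 against si-Ctrl (vertical axes, linear from 0), by group (horizontal axes). Each symbol is 1 array and each line the mean of 3. The si-Med23 arrays of IFI35 sit between 1231 and 1333, while IFIT5 is highest in si-Ctrl.

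**Figure D2:**
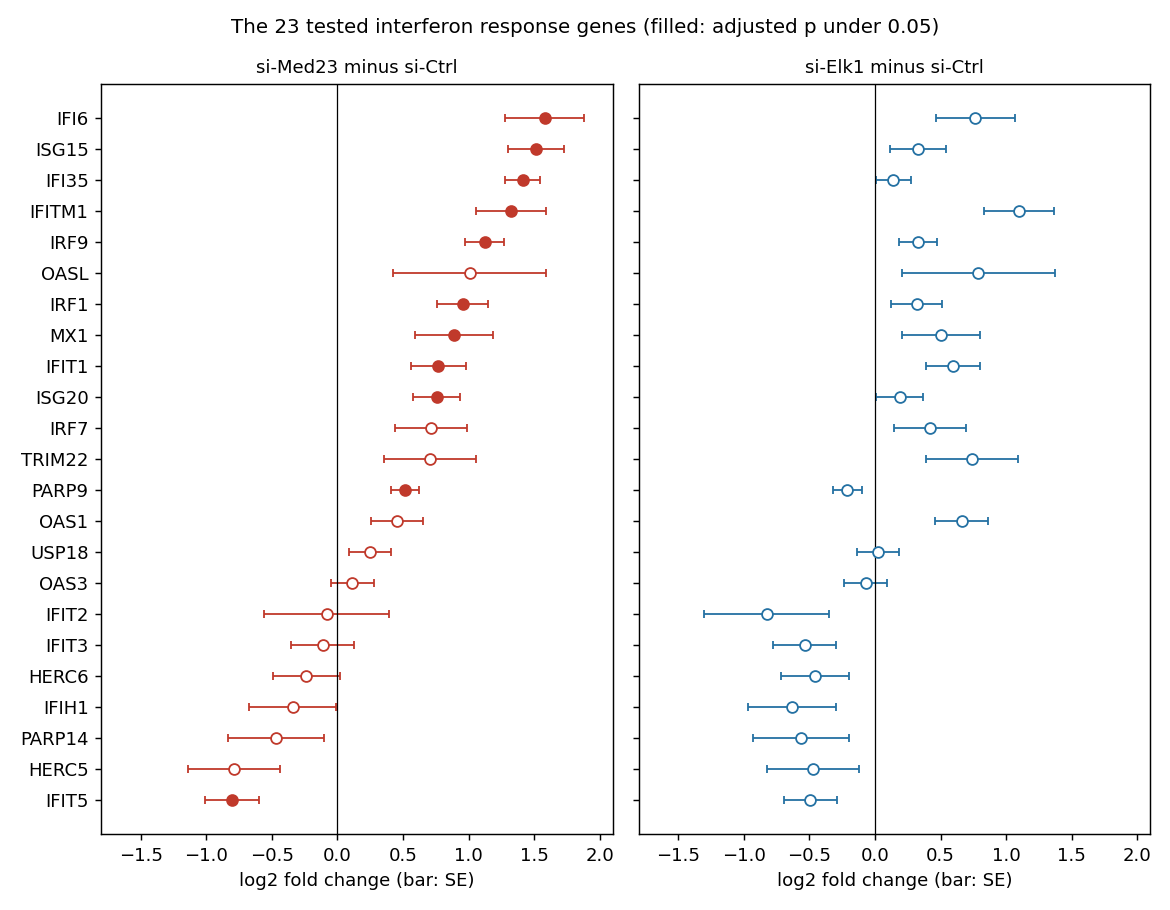
Log2 fold changes of the 23 tested genes (horizontal axis) for si-Med23 (left) and si-Elk1 (right), each against si-Ctrl. Bars are the SE and filled points passed an adjusted p of 0.05. There are 11 filled points on the left and 0 on the right.

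The 10 dim genes were DDX60, OAS2, MX2, RSAD2, BST2, SAMD9, IFI27, IFI44, IFI44L and XAF1. Their signals ran from 1.8 to 67.0 in si-Med23, 3.6 to 122.6 in si-Elk1 and 2.6 to 88.0 in si-Ctrl. MX2, a nuclear-pore relative of MX1, gave 48.6, 6.4 and 55.9 in si-Med23, 123, 41.9 and 103 in si-Elk1, and 4.8, 56.8 and 14.7 in si-Ctrl. RSAD2, also called viperin, gave 14.0, 3.1 and 3.1 in si-Med23, 16.5, 22.3 and 50.4 in si-Elk1, and 24.5, 39.8 and 84.5 in si-Ctrl. At such signals arrays of 1 group differ several-fold, so no change is read from them.

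The knockdowns were also compared with each other. 5 of the 23 were higher in si-Med23 than in si-Elk1 and 0 were lower, where 9.54% of all genes were higher and 12.2% lower, 21.7% in either direction. At an unadjusted p under 0.05 there were 7 higher and 0 lower of the 23, against 39.7% of all genes in either direction. The 5 were IFI35 (1.27 ± 0.13, adjusted p = 0.003246), ISG15 (1.19 ± 0.21, adjusted p = 0.01075), IRF9 (0.79 ± 0.15, adjusted p = 0.01121), PARP9 (0.73 ± 0.11, adjusted p = 0.006497) and IRF1 (0.64 ± 0.19, adjusted p = 0.048). In all 5, and in 6 of the 23 in all, every si-Med23 array lay above every si-Elk1 array, as in 18.5% of all genes. Under the poly-A spike scaling 2 of the 5, IFI35 and ISG15, kept a positive difference and the other 3 turned negative. The IRF1 call was lost on leaving out any single si-Med23 oligo, or si-Elk1 oligo A or B (adjusted p from 0.05752 to 0.1437). Without si-Elk1 oligo C, which stood apart, there were 6, with ISG20 added. For IFITM1 the difference was 0.22 ± 0.27 (adjusted p = 0.5654), and for OAS1 it was -0.21 ± 0.20 (adjusted p = 0.4709).

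The arrays of a group, 1 per oligo, did not read alike on every gene. Set against the mean of the control arrays, the median of the 23 genes was 0.45, 0.53 and 0.60 on the log2 scale with si-Med23 oligos A, B and C, and 0.01, 0.10 and 0.37 with si-Elk1 oligos A, B and C. The control arrays themselves gave 0.07, 0.01 and -0.08. Over the 10 genes that rose in si-Med23, which were chosen by that contrast, the si-Elk1 oligos gave medians of 0.14, 0.31 and 0.63. Oligo C was the highest of the si-Elk1 arrays by both medians. It was also the highest by the median over all tested genes, at 0.15 against 0.04 and 0.02 for oligos A and B. The si-Med23 arrays gave all-gene medians of 0.10, 0.10 and 0.07.

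**Figure D3:**
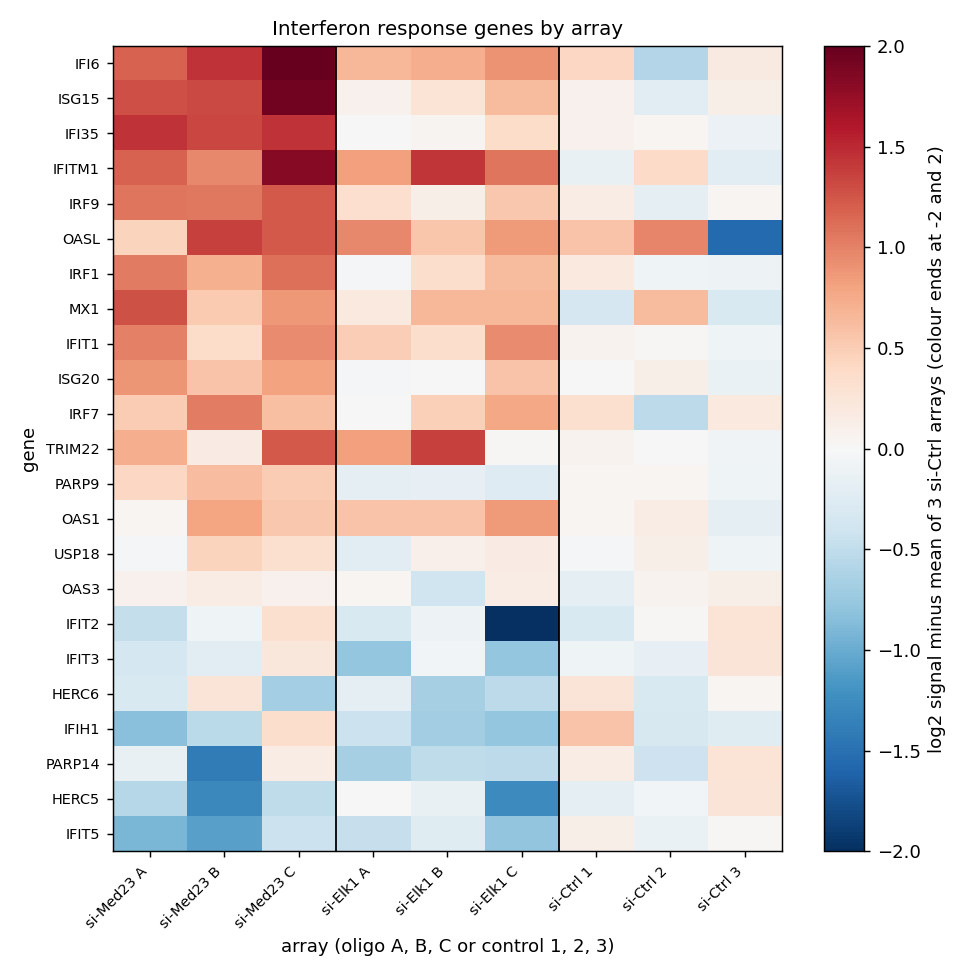
Log2 signal of the 23 tested genes (rows, in order of the si-Med23 change) on each array (columns) minus the mean of the 3 si-Ctrl arrays. Red is higher and blue lower, with colours ending at -2 and 2, and the 3 si-Med23 columns are red for the upper genes.

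The same contrast was read in 84 other genes of the pathway, of which 79 had a probe set and 63 were tested. In si-Med23, 29 rose (46.0%), 7 fell (11.1%) and 27 did not pass, with a median log2 fold change of 0.46, where 20.3% of all genes rose, 19.5% fell and the median was 0.09. In si-Elk1, 8 rose, 2 fell and 53 did not pass, with a median of 0.04, where 3.07% of all genes rose, 1.19% fell and the median was 0.05. Between the knockdowns, 23 were higher and 5 lower in si-Med23, where 9.54% of all genes were higher and 12.2% lower. Of the 29 rises, 25 stayed positive under the hybridization control scaling and 1, GBP2, under the poly-A spike scaling, and all 7 falls stayed negative under both. The counts in si-Elk1 also moved with single arrays: leaving out si-Ctrl replicate 3 gave 0 in each direction, and leaving out si-Elk1 oligo C gave 6 higher and 0 lower. The shares over all genes in those fits are not given here. Whether these genes moved more than the rest cannot be told from such counts.

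Among these groups of other pathway genes, antigen presentation held the highest share of rises, 9 of 12 tested genes in si-Med23 with 0 lower. Over all genes, 20.3% rose and 19.5% fell. PSME1, an activator of the proteasome, gave 8629, 8778 and 8942 in si-Med23, 4398, 4736 and 5482 in si-Elk1, and 3289, 4292 and 3722 in si-Ctrl (1.23 ± 0.14 in si-Med23, adjusted p = 0.001843). PSMB8, a subunit of the immunoproteasome, rose by 1.16 ± 0.18 (adjusted p = 0.003), and the peptide-loading protein TAPBP by 0.86 ± 0.18 (adjusted p = 0.007399). B2M, the light chain of class I molecules, rose by 0.55 ± 0.11 (adjusted p = 0.007192). HLA-B rose in si-Med23 (1.29 ± 0.16, adjusted p = 0.002003) and in si-Elk1 (0.86 ± 0.16, adjusted p = 0.02442), as did HLA-C (1.12 ± 0.16 and 0.77 ± 0.16). The HLA probe sets may cross-hybridize among these near-identical genes, so which HLA gene changed is uncertain. HLA-E, HLA-F and PSMB10 also rose in si-Med23. These 9 rises turn negative under the poly-A spike scaling, and they stay positive under the hybridization, median and quantile scalings. Under the hybridization control scaling the smallest of the 9 was 0.050. With that scaling, 5 of the 12 genes passed as higher and 1 as lower, where 3.24% and 41.3% of all genes did.

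Neither of the 2 interferon ligands bright enough for a test passed in si-Med23. IFNL1, a type III interferon, gave 53.1, 52.5 and 56.4 in si-Med23, 90.5, 109.9 and 109.7 in si-Elk1, and 76.4, 68.0 and 55.8 in si-Ctrl. It rose in si-Elk1 with an adjusted p just under the threshold (0.63 ± 0.15), and that difference turned to -0.0093 under the poly-A spike scaling.

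The receptors and kinases moved in both directions in si-Med23. IFNAR1, a chain of the type I receptor, fell (log2 fold change -0.88 ± 0.19, adjusted p = 0.008666), with signals of 236, 306 and 299 in si-Med23, 456, 432 and 296 in si-Elk1, and 458, 555 and 536 in si-Ctrl. Its partner chain IFNAR2 rose by 0.78 ± 0.17 (adjusted p = 0.00857), and IFNGR2 of the type II receptor by 0.79 ± 0.15 (adjusted p = 0.005085). The kinase JAK2 gave 59.1, 63.1 and 77.9 in si-Med23, 164, 156 and 112 in si-Elk1, and 159, 137 and 179.9 in si-Ctrl. All si-Med23 arrays lay below the rest, and JAK2 fell by 1.24 ± 0.19 (adjusted p = 0.002765). With 2 of the 3 si-Med23 arrays below the filter level, the size of the JAK2 fall is less certain than its direction. STAT3 (0.56 ± 0.12), IRF2 (0.71 ± 0.18) and IRF3 (0.47 ± 0.13) rose in si-Med23, though under the hybridization control scaling, with its shift of -0.50, the IRF3 difference turned negative.

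Of the 7 sensing genes tested, 2 rose and 2 fell in si-Med23 (28.6% each), shares near the 20.3% and 19.5% over all genes, so the counts do not set this group apart. TBK1, the kinase that activates IRF3, fell (log2 fold change -1.46 ± 0.35, adjusted p = 0.01205), and so did EIF2AK2, the RNA-activated kinase PKR (-1.35 ± 0.29, adjusted p = 0.008487). EIF2AK2 gave 565, 558 and 526 in si-Med23, 1534, 1567 and 707 in si-Elk1, and 1479, 1159 and 1592 in si-Ctrl. The array of si-Elk1 oligo C was the lowest outside si-Med23. The inhibitors PIAS1 and PTPN2 fell while PTPN6 rose.

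Of 25 other induced genes tested, 11 rose (44.0%) and 1, CASP1, fell (4.0%) in si-Med23, where 20.3% of all genes rose and 19.5% fell. GBP2, a guanylate-binding protein, had the largest change of the pathway list, with 427, 364 and 398 in si-Med23, 101, 139.8 and 162 in si-Elk1, and 78.8, 60.6 and 34.5 in si-Ctrl (2.83 ± 0.29, adjusted p = 0.001843). With 2 of the 3 control arrays below the filter level, its size is less certain than its direction. IFITM3, which blocks virus entry, rose in si-Med23 (1.55 ± 0.14, adjusted p = 0.001843) and in si-Elk1 (0.86 ± 0.14, adjusted p = 0.01917), and IFITM2 gave 1.48 ± 0.14 and 0.81 ± 0.14. These near-identical relatives of IFITM1 may share signal between probe sets. UBE2L6, the conjugating enzyme for ISG15, rose in both knockdowns (1.09 ± 0.15 in si-Med23, adjusted p = 0.002364, and 1.00 ± 0.15 in si-Elk1, adjusted p = 0.01413). CD274 and NMI fell in si-Elk1 (-1.28 ± 0.28, adjusted p = 0.04401, and -0.59 ± 0.12, adjusted p = 0.03833). All 3 si-Elk1 arrays of CD274 were below the filter level.

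**Figure D4:**
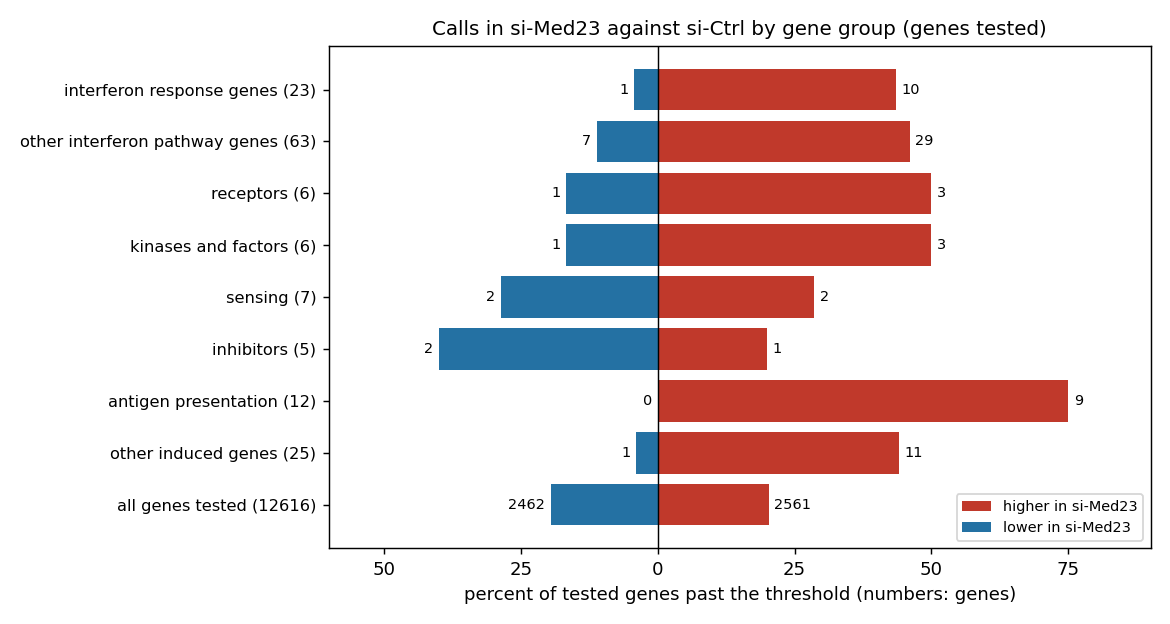
Percent of tested genes that passed in si-Med23 against si-Ctrl (horizontal axis), higher to the right and lower to the left, for the interferon response genes, the groups of other pathway genes and all genes tested. Numbers at the bars count genes, such as 9 higher and 0 lower in antigen presentation, beside 20.3% higher and 19.5% lower over all genes.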

How the data were processed

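RNA of A549 cells was hybridized to Affymetrix arrays, 3 per group. The deposited values are intensities on a linear scale, 1 per probe set. Both RMA and MAS5 appear in the submitters' processing notes without a stated role, so the deposited normalization was kept. Of 54675 probe sets, 41091 carried 1 gene in the platform annotation and 1801 several, which were not used. Precision is limited by the number of arrays.

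Values were taken as log2(signal + 1). Genes were kept if their mean was at or above the median of all non-control probe sets (6.05). All 9 arrays were fitted together in limma 3.58.1 (R 4.3.3, two-sided, eBayes), with Benjamini-Hochberg adjustment over 12616 genes and a threshold of 0.05. Alternatives covered the filter, probe set choice, scaling, weights, the pseudocount, the threshold, a replicate block and leaving out each array. The fit was tested on simulated data.

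The genes, lists and tests were chosen with earlier results of these data known. Values by array are printed for each interferon response gene that passes, with up to 8 others as examples, and other pathway genes are named only if they pass. No block was used, because replicate numbers are not stated to mark a shared culture or day. As a check, deviations of same-numbered arrays from their group means correlated at -0.18 to 0.05. Promoter sequences are from RefSeq.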

Additional observations from a re-analysis of the deposited data

How the results depend on the processing

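Counts of interferon response genes that passed depended most on the scaling. For si-Med23 against si-Ctrl, with 10 higher and 1 lower, poly-A spike scaling gave 0 higher and 16 lower (over all genes 0.143% higher and 94.2% lower), and hybridization control scaling gave 5 higher and 3 lower (3.24% and 41.3%). Median centring gave 13 higher and 1 lower (37.7% and 13.3%). Leaving out probe sets that can match several transcripts gave 6 higher and 0 lower, among 17 genes still tested. IFI35, ISG15, IFITM1 and IFIT5 were not tested in that setting, so their calls were neither kept nor lost. PARP9 was tested there and did not pass. Averaging all probe sets of a gene gave 0 lower among 20 genes tested, and IFIT5 did not pass (limma adjusted p = 0.1265). No filter gave 2 lower, with RSAD2 added, and a threshold of 0.01 gave 0 lower. Fitting only the 6 arrays compared, or using array weights, gave 2 lower (20.6% and 22.1% of all genes). Leaving out 1 array at a time gave 8 to 10 higher and 0 to 1 lower. Without si-Ctrl replicate 3, for example, there were 8 higher and 1 lower (11.9% and 13.3% of all genes). For si-Elk1 against si-Ctrl, with 0 in each direction, poly-A scaling gave 9 lower (38.8% of all genes), array weights gave 2 higher, a trended and robust prior gave 1 higher, raising dim signals to the filter level gave 1 higher, and a threshold of 0.1 gave 2 higher. Leave-one-out gave 0 to 0 in each direction. For si-Med23 against si-Elk1, with 5 higher, median centring gave 10 (37.1% of all genes) and poly-A scaling gave 0 higher and 7 lower (0.262% and 81.0%). Averaging probe sets gave 3, leaving out multi-transcript probe sets gave 1, a threshold of 0.01 gave 2, and leave-one-out gave 4 to 6 higher and 0 to 0 lower. Without multi-transcript probe sets, IFI35 and ISG15 were not tested in this comparison and IRF1 did not pass (limma adjusted p = 0.05286). Counts printed here without a share over all genes are not read as particular to these genes.

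Under poly-A scaling, the log2 fold changes in si-Med23 against si-Ctrl reversed to -0.20 for IFI35, -0.031 for IFI6, -0.84 for IFIT1, -0.29 for IFITM1, -0.66 for IRF1, -0.49 for IRF9, -0.095 for ISG15, -0.85 for ISG20, -0.72 for MX1 and -1.09 for PARP9, and against si-Elk1 to -0.34 for IRF1, -0.18 for IRF9 and -0.25 for PARP9. The shift is the same for every gene, and its cause was not tested. PARP9 also reversed with the mean of its probe sets (-0.030) and without multi-transcript probe sets (-0.58 against si-Ctrl, -0.54 against si-Elk1).

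With the replicate block, si-Med23 against si-Ctrl gave 9 higher and 1 lower, with MX1 lost (adjusted p = 0.07512), si-Elk1 against si-Ctrl gave 0 and 0, and si-Med23 against si-Elk1 gave 4 higher, with IRF1 lost (adjusted p = 0.08504). The labels do not state that replicate numbers pair the arrays.

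For the other pathway genes, counts recomputed under the same alternatives, chosen after seeing the data, gave for si-Med23 against si-Ctrl (29 higher and 7 lower) 1 higher and 51 lower under poly-A scaling, 11 and 16 under hybridization control scaling, and 17 and 3 without multi-transcript probe sets. For si-Elk1 against si-Ctrl (8 and 2) they gave 0 and 24 under poly-A scaling and 2 and 1 without multi-transcript probe sets. Without multi-transcript probe sets only 40 of the other pathway genes were tested, against 63 in the main fit.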
